A study of Mus musculus with 6 samples.

Results

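The 47 genes described here encode the enzymes and carriers of the urea cycle and of amino acid breakdown. They were taken by gene symbol from a table of 24346 genes, all 47 were found, and they were grouped by the amino acid whose breakdown they serve. RNA from whole livers of 8-week-old male C57/BL6 mice had been sequenced 24 hours after an intraperitoneal injection of 0.6 µl CCl4 per g body weight, with the toxin dissolved in sunflower oil. Of the 6 libraries, 3 were from control *med23*f/f mice, whose *Med23* gene is floxed, that is, carries loxP sites, and 3 were labelled *med23*Δli. In *med23*Δli mice, *Albumin*-cre drives the deletion of *Med23* in hepatocytes while the other cells of the liver keep the gene. The labels number the libraries within each group but do not say that they are separate animals. Each library is called a liver here. MED23 is a subunit of Mediator, the complex that links transcription factors to RNA polymerase II. All 6 livers had received CCl4, so every difference given here is one between livers exposed to the toxin. At this time the authors saw substantial necrosis in control livers but scarcely any in *med23*Δli livers. They also reported fewer apoptotic cells and lower serum levels of the liver enzymes ALT and AST in *med23*Δli mice. The part of this difference in injury in the results was not tested.

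Hepatocytes break down most of the amino acids that the body does not use for protein. Their nitrogen is moved by transaminases onto glutamate and aspartate or set free as ammonia, and the urea cycle, which starts in the mitochondrion and ends in the cytosol, turns it into urea. The carbon skeletons feed glucose synthesis, ketone bodies or the citric acid cycle. The urea cycle and the enzymes for serine and histidine are strongest in the hepatocytes around the portal vein, whereas CCl4 is activated and harms cells mainly around the central vein.

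Cuffdiff, as the authors ran it, gave every gene a value in each library in FPKM, which corrects the fragment number for the length of the transcript and the size of the library, so levels of different genes can be set side by side per length. The groups were compared with limma on the log2(FPKM + 0.1) scale over the 11956 genes whose mean reached 0.5 FPKM, and a gene was called at an adjusted p under 0.05 (Benjamini-Hochberg). FPKM keeps no read counts, so the depth of each library is unknown here, and the spread between the livers of a group is the only error. *Med23* had 3.51 ± 0.589 FPKM in the controls and 3.24 ± 0.286 FPKM in the *med23*Δli-labelled livers (n = 3 each, ± SD). The log2 fold change was −0.11 (adjusted p = 0.685, limma), and the values overlapped. *Med23* expression over the whole gene and all cells therefore does not tell the groups apart, and each direction given here rests on the labels. Of the 7 hepatocyte markers found and tested 1 was called, *Serpina1a*, which was lower, and the summed level of the list was 26881 to 37318 FPKM in the controls and 23815 to 30431 FPKM in the *med23*Δli-labelled livers. Fewer cells of a type and less RNA per cell cannot be told apart in such libraries.

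All 47 genes passed the filter on low values. In the *med23*Δli-labelled livers, 9 genes rose (19.1%) and 11 fell (23.4%), beside 11.6% and 9.48% of all genes tested, and 27 were not called. Past 2-fold, 5 rose and 5 fell, beside 4.45% and 3.45% of all genes tested. The 5 that rose past 2-fold were *Bhmt*, *Hpd*, *Kynu*, *Csad* and *Bckdha*, and those that fell past 2-fold included *Etnppl*, *Hal*, *Sdsl* and *Mat1a*. In 13 genes every liver labelled *med23*Δli was above every control, and in 12 every one was below, beside 23.3% and 20.4% of all genes tested. The median log2 fold change was 0.20 for the 47 genes and 0.02 for all genes tested, and the median of its size was 0.63 and 0.34. With each library centred on the hepatocyte markers, which moves the median of all genes to 0.17, 13 genes were higher and 7 lower instead of 9 and 11, and 0 called genes changed sign. Over all genes tested, the same centring gave 1418 higher and 479 lower instead of 1384 and 1133. Of the 20 called genes, 7 stayed called in all 17 alternative settings, among them *Hal*, *Hpd*, *Sdsl*, *Bckdha*, *Bhmt* and *Csad*.

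**Figure D1:**
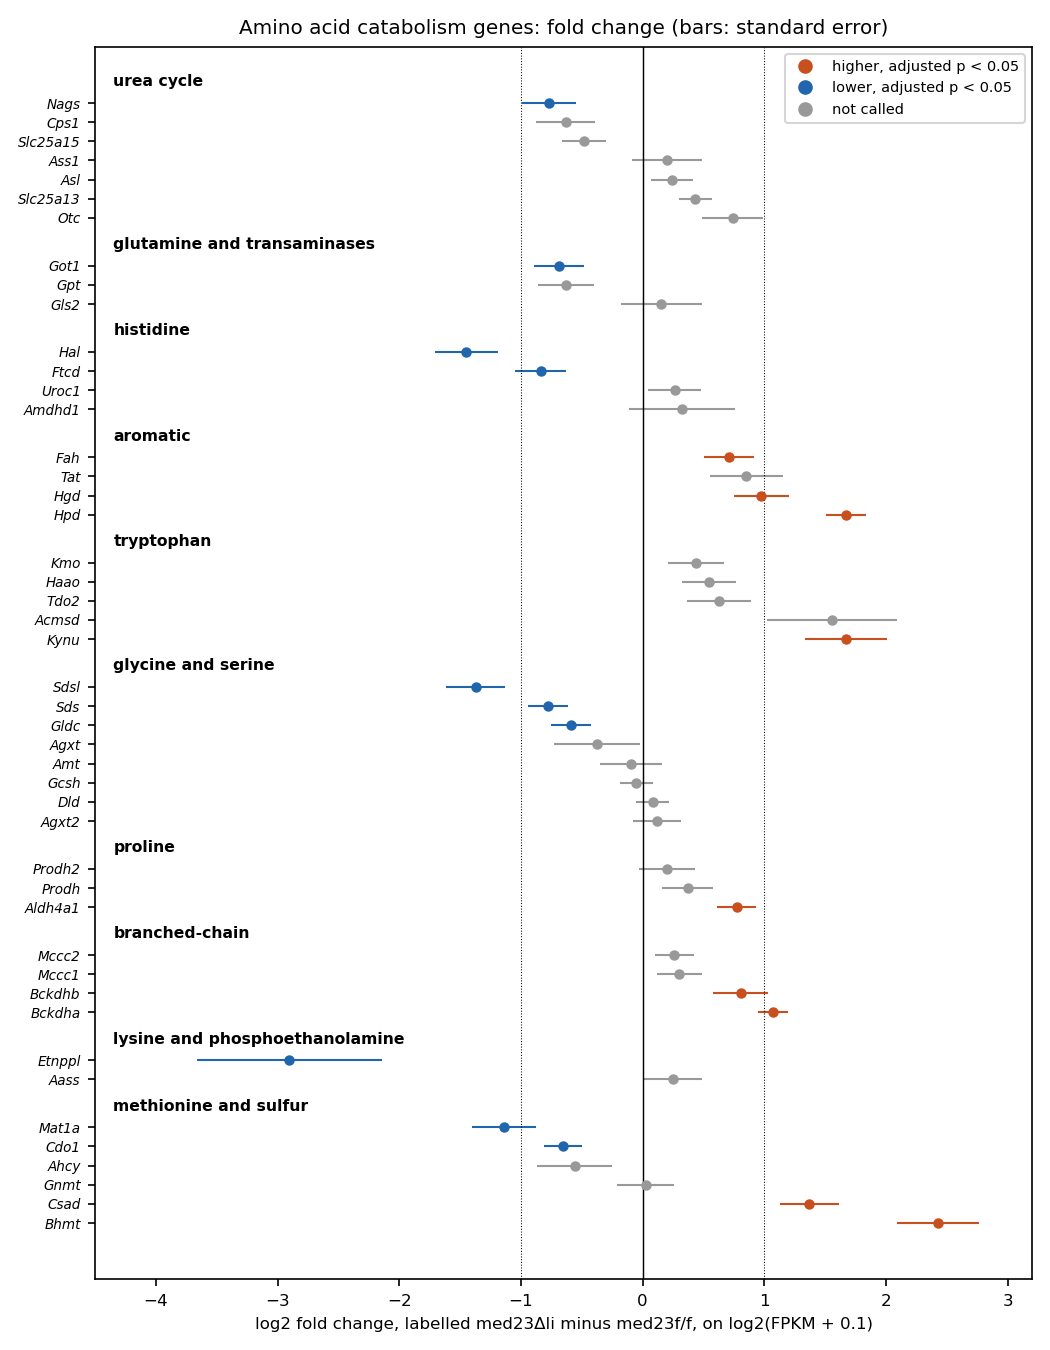
Log2 fold change of 46 of the 47 genes (x axis, livers labelled med23Δli minus med23f/f, on log2(FPKM + 0.1)), grouped by pathway, with bars for the standard error, orange for higher, blue for lower and grey for not called. All 4 aromatic, 5 tryptophan, 3 proline and 4 branched-chain genes lie right of 0, whereas the urea cycle, histidine, glycine and methionine groups lie on both sides.

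The promoters of the genes that moved past 2-fold were read from RefSeq for mouse GRCm38.p6, 250 bases before to 50 after the gene start, and 37 of the 47 genes had an entry. *Kynu*, *Sdsl* and *Mat1a* had none. The 2 largest rises and the 2 largest falls with an entry are shown here so that a reader can set the sequences of genes with opposite changes side by side. *Bhmt* is the minus strand of chr13:93637709-93638008, *Hpd* the minus strand of chr5:123182674-123182973, *Etnppl* the plus strand of chr3:130617198-130617497 and *Hal* the plus strand of chr10:93488518-93488817. Each is written 5′ to 3′, and capitals mark a match to a motif that was searched on both strands.
Bhmt: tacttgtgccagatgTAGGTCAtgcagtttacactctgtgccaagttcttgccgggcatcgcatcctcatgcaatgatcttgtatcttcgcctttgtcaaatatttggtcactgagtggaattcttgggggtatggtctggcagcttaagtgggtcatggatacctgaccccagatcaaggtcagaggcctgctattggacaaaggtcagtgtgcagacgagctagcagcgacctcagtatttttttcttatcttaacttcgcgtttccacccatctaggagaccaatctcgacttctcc
Hpd: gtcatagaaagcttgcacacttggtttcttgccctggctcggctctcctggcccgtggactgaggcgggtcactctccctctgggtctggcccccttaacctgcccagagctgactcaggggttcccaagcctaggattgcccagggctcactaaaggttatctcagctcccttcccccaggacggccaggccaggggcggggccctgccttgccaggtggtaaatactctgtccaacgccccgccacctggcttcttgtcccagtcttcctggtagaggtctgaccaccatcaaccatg
Etnppl: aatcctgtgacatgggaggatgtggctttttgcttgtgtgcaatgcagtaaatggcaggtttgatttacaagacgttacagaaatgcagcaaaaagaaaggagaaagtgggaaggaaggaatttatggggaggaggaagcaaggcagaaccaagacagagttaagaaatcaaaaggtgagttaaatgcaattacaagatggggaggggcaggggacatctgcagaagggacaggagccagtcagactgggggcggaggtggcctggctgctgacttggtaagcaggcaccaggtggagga
Hal: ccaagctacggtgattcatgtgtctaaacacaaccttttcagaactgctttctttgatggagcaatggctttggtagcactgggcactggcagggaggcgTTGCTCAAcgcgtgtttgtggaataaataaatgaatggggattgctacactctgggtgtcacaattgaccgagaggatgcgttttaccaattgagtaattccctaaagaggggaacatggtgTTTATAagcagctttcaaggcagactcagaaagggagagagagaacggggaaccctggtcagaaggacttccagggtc
The motifs were TATAAA of the core promoter, TTGCNNAA for C/EBP factors, TGACGTCA for CREB, TAGGTCA for ROR receptors, TGTTCT for the glucocorticoid receptor and CAAAGTCC for HNF4. *Bhmt* held TAGGTCA starting at −235 from the gene start. *Hal* held a C/EBP match at −150 and a TATAAA match at −28, the latter on the opposite strand and so printed as TTTATA. *Hpd* and *Etnppl* held none of the letters searched. TAGGTCA stood in 3 of the 37 promoters (*Tdo2*, *Aass*, *Bhmt*) and in 2.64% of all 27025 promoters in the table. TATAAA stood in 5 of the 37 (*Tdo2*, *Ftcd*, *Hal*, *Agxt2*, *Hgd*) and 14.2% of all, and TTGCNNAA in 5 (*Aass*, *Prodh2*, *Hal*, *Dld*, *Hgd*) and 10.8% of all. TGTTCT stood in 4 and 19.0% of all, CAAAGTCC in 1 and 1.44%, and TGACGTCA in 0 and 1.88%.

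In the urea cycle, the gene for the enzyme that makes the activator of the first step fell. *Nags*, which makes the activator of CPS1, had 71.9, 73.8 and 48.8 FPKM in the controls and 30.4, 35.9 and 47.8 FPKM in the *med23*Δli-labelled livers. It fell by 0.77 on the log2 scale (standard error 0.22, adjusted p = 0.0446, limma), and its closest livers, control replicate 3 and *med23*Δli replicate 3, lay 48.8 against 47.8 FPKM. *Cps1*, which binds ammonia into carbamoyl phosphate in the mitochondrion, had 522, 277 and 379 FPKM in the controls and 205, 252 and 285 FPKM in the other livers, with a log2 fold change of −0.63 that was not called (adjusted p = 0.0974, limma). *Cps1* values overlapped between control replicate 2 and *med23*Δli replicate 3.

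*Otc*, which joins carbamoyl phosphate to ornithine, had 49.7, 38.9 and 25.2 FPKM in the controls and 56.0, 55.6 and 73.3 FPKM in the *med23*Δli-labelled livers. The groups of *Otc* did not overlap, but its log2 fold change of 0.74 was not called (adjusted p = 0.0684, limma). *Ass1* and *Asl*, the cytosolic enzymes that make and cleave argininosuccinate, overlapped between the groups. *Ass1* had 344, 372 and 184 FPKM in the controls and 312, 419.9 and 272 FPKM in the *med23*Δli-labelled livers, and *Asl* had 101, 107 and 72.9 FPKM and 99.6, 112 and 117 FPKM. Their log2 fold changes were 0.20 and 0.24 (adjusted p = 0.641 and 0.337, limma).

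Between the mitochondrion and the cytosol, *Slc25a15*, the ornithine carrier, had 147, 113 and 179 FPKM in the controls and 105, 101 and 102 FPKM in the *med23*Δli-labelled livers. *Slc25a13*, which brings out aspartate, had 37.8, 30.1 and 32.4 FPKM and 46.5, 46.0 and 42.6 FPKM. Neither carrier overlapped between the groups, and neither passed the test (adjusted p = 0.0888 and 0.0534, limma). Of the 7 urea cycle genes described here, 1 fell and 0 rose by limma, beside 9.48% and 11.6% of all genes tested. With an unadjusted p under 0.05 from limma, 2 were higher and 3 lower. *Nags* was no longer called without control replicate 1 or 2 or any liver labelled *med23*Δli, with an adjusted p of up to 0.151 from limma, nor with hepatocyte marker centring (0.0777), with no filter on low values (0.0758) or with eBayes without a trend.

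Among the enzymes that hand nitrogen to the cycle, *Got1*, the cytosolic aspartate aminotransferase, had 330.3, 195 and 307 FPKM in the controls and 175, 169.9 and 159 FPKM in the *med23*Δli-labelled livers. It fell by 0.69 on the log2 scale with an adjusted p of 0.0497 from limma, at the edge of the threshold, and 10 of 17 alternatives ended the call. Those included each omission of a liver other than control replicate 2, where the adjusted p rose to up to 0.138. *Gpt*, the cytosolic alanine aminotransferase, had a log2 fold change of −0.63 and *Gls2*, the liver glutaminase, one of 0.15, and neither was called. The mitochondrial partners, which are among the 77 other genes of these pathways listed for comparison, differed in direction. *Got2* rose from 145 ± 10.2 to 225 ± 14.1 FPKM (log2 fold change 0.63, adjusted p = 0.0146, limma), a call lost without *med23*Δli replicate 1 or 2 (up to 0.0700). *Gpt2* fell from 168 ± 27.8 to 65.0 ± 17.2 FPKM (log2 fold change −1.39, adjusted p = 0.00657, limma). The ratio of *Got1* to *Got2*, chosen after the values were seen, was 1.94 ± 0.590 in the controls and 0.748 ± 0.0211 in the *med23*Δli-labelled livers (SD, n = 3 each).

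In histidine breakdown, the first and the last enzyme fell. *Hal*, the histidine ammonia-lyase that opens the pathway and whose promoter is printed above, had 118, 57.6 and 73.4 FPKM in the controls and 28.7, 33.6 and 25.3 FPKM in the *med23*Δli-labelled livers. The lowest control was above the highest of the other livers. *Hal* was 2.85-fold lower, with a log2 fold change of −1.45 (standard error 0.26, adjusted p = 0.0101, limma). *Ftcd*, which passes the one-carbon unit of histidine to folate, had 109, 122 and 75.9 FPKM and 57.3, 65.5 and 46.96 FPKM, and fell by 0.84 on the log2 scale (adjusted p = 0.0285, limma). The enzymes between them, *Uroc1* and *Amdhd1*, overlapped between the groups, with log2 fold changes of 0.26 and 0.32 that were not called. *Amdhd1* had 46.0 FPKM in control replicate 1, and 12.9 and 14.1 FPKM in the other controls. *Hal* and *Amdhd1* are neighbours on chromosome 10 with 4033 bases between them, and only *Hal* of the pair was called. The call of *Ftcd* was lost in each omission of a liver except control replicate 3, with an adjusted p of up to 0.0984 from limma, and with no filter on low values (0.0512).

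In tyrosine breakdown all 4 genes were higher in every liver labelled *med23*Δli than in every control, beside 23.3% of all genes tested. In the test 3 of 4 rose, beside 11.6% of all genes tested. *Hpd*, which encodes 4-hydroxyphenylpyruvate dioxygenase, had 184, 150.2 and 127 FPKM in the controls and 452, 479 and 527 FPKM in the *med23*Δli-labelled livers. The gap between the groups was larger than the range within either. *Hpd* was 3.16-fold higher, with a log2 fold change of 1.67 (standard error 0.17, adjusted p = 0.00173, limma), and it moved from rank 12 to rank 3 of the 47 genes.

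*Hgd*, homogentisate dioxygenase, had 148, 76.5 and 100.4 FPKM in the controls and 212, 204 and 199 FPKM in the *med23*Δli-labelled livers, and rose by 0.97 on the log2 scale (adjusted p = 0.0229, limma). *Fah*, the last enzyme, which splits fumarylacetoacetate, had 107, 105 and 65.0 FPKM and 141, 156 and 147 FPKM, and rose by 0.71 (adjusted p = 0.0440, limma). *Tat*, the aminotransferase that opens the pathway and a classic target of glucocorticoids, had 325, 163 and 397 FPKM and 508, 516 and 472 FPKM, and its log2 fold change of 0.85 was not called (adjusted p = 0.0791, limma). The summed level of the 4 genes was 765, 495 and 689.7 FPKM in the controls and 1313, 1355 and 1345 FPKM in the other livers. The calls of *Hgd* and *Fah* were each lost without any 1 of the *med23*Δli-labelled livers, with adjusted p-values of up to 0.0812 and 0.132, and that of *Fah* also with each library centred on its median, with no filter on low values and with eBayes without a trend. On the opposite strand, *Hpd* overlaps *Psmd9*, which had 14.6 to 18.6 FPKM in the *med23*Δli-labelled livers and was lower there, and without strand the reads of the shared bases cannot be assigned.

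In tryptophan breakdown 1 of 5 genes rose, beside 11.6% of all genes tested. All 5 had a log2 fold change above 0, as had 6240 of the 11956 genes tested. *Kynu*, kynureninase, had 21.7, 7.57 and 12.0 FPKM in the controls and 36.3, 44.0 and 40.8 FPKM in the *med23*Δli-labelled livers. It was 2.93-fold higher (log2 fold change 1.67, standard error 0.33, adjusted p = 0.0145, limma), with no overlap, and the call was lost without *med23*Δli replicate 2 or 3, at an adjusted p of up to 0.0559. *Tdo2*, the dioxygenase that opens the ring, had 295, 174 and 139.7 FPKM and 322, 306 and 268 FPKM, and *Haao* had 98.6, 108 and 59.9 FPKM and 116, 130.5 and 130.3 FPKM. Their log2 fold changes were 0.63 and 0.54 (adjusted p = 0.121 and 0.115, limma), and that of *Kmo* was 0.44. *Acmsd*, which diverts the pathway from NAD synthesis, had 7.72, 1.46 and 1.93 FPKM and 8.09, 7.46 and 10.1 FPKM. Its log2 fold change of 1.56 had a standard error of 0.53 and was not called, and control replicate 1 lay among the *med23*Δli-labelled livers.

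**Figure D2:**
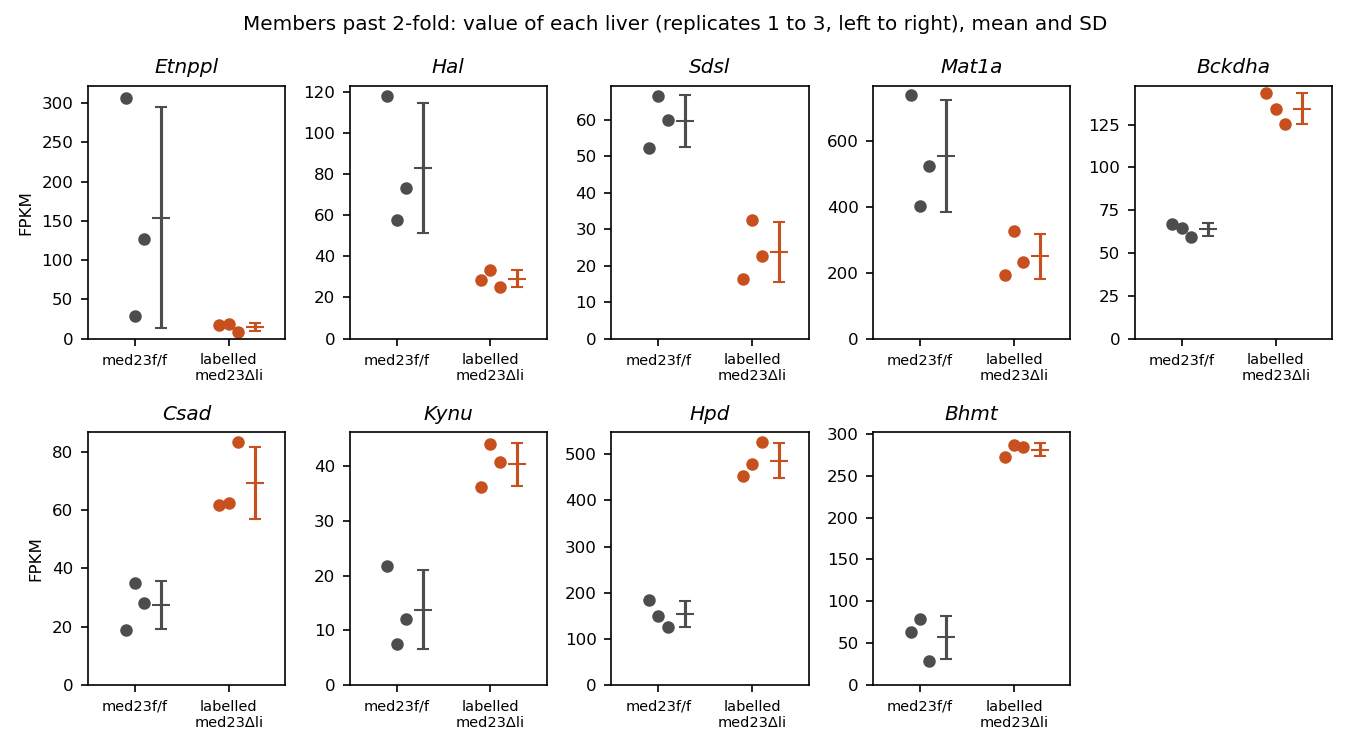
FPKM of 9 of the 10 genes called past 2-fold in each liver (points, replicates 1 to 3 from left to right within a group), with the mean and SD, grey for med23f/f and orange for the livers labelled med23Δli. The groups do not overlap in any of the 9 panels, and the controls of Etnppl spread from 28.7 to 307 FPKM.

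For glycine and serine, both serine dehydratase genes fell. *Sds*, which turns serine into pyruvate and ammonia, had 129, 146 and 135 FPKM in the controls and 76.4, 97.6 and 67.3 FPKM in the *med23*Δli-labelled livers, and fell by 0.78 on the log2 scale (standard error 0.16, adjusted p = 0.0166, limma). Its homolog *Sdsl* had 52.4, 66.6 and 60.0 FPKM and 16.3, 32.4 and 22.5 FPKM, and fell by 1.37 (standard error 0.24, adjusted p = 0.00973, limma). In both genes all controls lay above all other livers, and in both *med23*Δli replicate 2 was the highest of its group. The genes are neighbours on chromosome 5, 3715 bases apart and on opposite strands.

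*Gldc*, the decarboxylase of the glycine cleavage system, fell from 42.0 ± 8.64 to 27.5 ± 0.984 FPKM (n = 3 each, ± SD), with log2 fold change −0.59 (adjusted p = 0.0423, limma). The other subunits of the system, *Amt*, *Gcsh* and *Dld*, had log2 fold changes of −0.09, −0.05 and 0.08 and were not called. *Agxt*, which detoxifies glyoxylate, spread from 61.7 to 183 FPKM among the controls and had a log2 fold change of −0.38, and that of *Agxt2* was 0.12. In all, 3 of 8 genes of glycine and serine fell and 0 rose by limma (0 with an unadjusted p under 0.05). Among all genes tested, 9.48% fell and 11.6% rose. The call of *Gldc* was lost without control replicate 1 or 2 or any liver labelled *med23*Δli (adjusted p up to 0.140, limma), with hepatocyte marker centring (0.121), with no filter on low values (0.0623) and with eBayes without a trend. The call of *Sds* was lost without *med23*Δli replicate 1 or 3 (up to 0.0697).

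In proline and branched-chain breakdown, the called genes rose. *Aldh4a1*, which oxidizes the product of proline dehydrogenase to glutamate, had 55.5, 38.0 and 43.6 FPKM in the controls and 77.2, 72.3 and 82.2 FPKM in the *med23*Δli-labelled livers, and rose by 0.77 on the log2 scale (adjusted p = 0.0172, limma). *Prodh* and *Prodh2*, the dehydrogenases of proline and hydroxyproline, overlapped between the groups and were not called (0.37 and 0.20). *Bckdha*, the α subunit of the decarboxylase that commits branched-chain keto acids to oxidation, had 67.0, 64.6 and 59.6 FPKM and 143, 134 and 125 FPKM. It rose with the smallest standard error of the 20 called among the 47 genes, 0.12, at log2 fold change 1.07 (adjusted p = 0.00279, limma). Its partner *Bckdhb* had 44.5, 30.4 and 46.4 FPKM and 58.7, 63.1 and 90.7 FPKM, and rose by 0.81 (adjusted p = 0.0398, limma). *Mccc1* and *Mccc2*, the subunits of the carboxylase of leucine breakdown, had log2 fold changes of 0.30 and 0.26 and were not called.

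The calls of *Aldh4a1* and *Bckdhb* were lost without any 1 of the *med23*Δli-labelled livers, with adjusted p-values of up to 0.0683 and 0.117, and that of *Bckdhb* also without control replicate 1 or 2. Quantile normalization and rescaling without the major urinary protein (*Mup*) genes also ended the call of *Bckdhb* (adjusted p up to 0.0701, limma), as did no filter on low values and eBayes without a trend. *Bckdha* overlaps *B3gnt8* on the opposite strand, which had at most 0.605 FPKM in any liver.

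Around the branched-chain decarboxylase, 4 of 17 other genes rose and 1 fell, beside 11.6% and 9.48% of all genes tested. *Ppm1k*, the phosphatase that switches the complex on, rose from 1.30 ± 0.387 to 4.45 ± 0.590 FPKM (log2 fold change 1.73, adjusted p = 0.00401, limma), whereas *Bckdk*, the kinase that switches it off, had a log2 fold change of 0.17 and was not called. *Bcat2*, a transaminase that feeds the complex, fell from 14.8 ± 3.78 to 4.78 ± 1.42 FPKM (−1.61, adjusted p = 0.00778). *Auh*, of leucine breakdown, rose from 8.91 ± 2.64 to 19.5 ± 0.910 FPKM (1.17, adjusted p = 0.0120). *Hibadh* and *Aldh6a1*, of valine breakdown, also rose (0.77 and 0.72). Without *med23*Δli replicate 1 the calls of *Auh*, *Hibadh* and *Aldh6a1* were lost (adjusted p up to 0.0898 over all alternatives), those of *Hibadh* and *Aldh6a1* also without either other liver labelled *med23*Δli and that of *Aldh6a1* without control replicate 2. The calls of *Ppm1k* and *Bcat2* were kept in all 17 alternatives.

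*Etnppl* had the largest log2 fold change of the 47 genes. It encodes the lyase that breaks down phosphoethanolamine and had 307, 28.7 and 127 FPKM in the controls and 17.3, 18.4 and 8.22 FPKM in the *med23*Δli-labelled livers. The controls differed among themselves by more than the distance from the lowest of them to the other group. The mean was 10.5-fold lower and the log2 fold change −2.91 (standard error 0.76, adjusted p = 0.0334, limma). The call was lost without control replicate 1 or 3 or any liver labelled *med23*Δli, where the adjusted p rose to up to 0.112, and the log2 fold change lay between −3.83 and −2.12. It was also lost with no filter on low values (0.0705) and with robust eBayes (0.0975). *Aass*, which starts lysine breakdown, overlapped between the groups with a log2 fold change of 0.25.

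In methionine and sulfur metabolism, 2 of 6 genes rose and 2 fell, beside 11.6% and 9.48% of all genes tested. *Mat1a*, which makes S-adenosylmethionine from methionine, had 741, 404 and 526 FPKM in the controls and 193, 326 and 232 FPKM in the *med23*Δli-labelled livers, and fell by 1.14 on the log2 scale (standard error 0.27, adjusted p = 0.0229, limma). *Bhmt*, which returns homocysteine to methionine with betaine, had 63.6, 78.7 and 28.3 FPKM and 272, 286 and 285 FPKM. It was 4.94-fold higher, the largest rise of the 47 genes, with a log2 fold change of 2.43 (standard error 0.34, adjusted p = 0.00494, limma). *Bhmt* moved from rank 29 to rank 8 of the 47, and the *med23*Δli-labelled livers lay between 272 and 286 FPKM.

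The ratio of *Bhmt* to *Mat1a*, chosen after the values were seen and given with no test, was 0.0858, 0.195 and 0.0539 in the controls and 1.41, 0.877 and 1.23 in the *med23*Δli-labelled livers. *Gnmt* and *Ahcy*, which consume S-adenosylmethionine and its product, overlapped between the groups, with log2 fold changes of 0.02 and −0.56 that were not called. *Gnmt* had the highest mean of the 47 genes in the *med23*Δli-labelled livers (554 ± 74.5 FPKM). On chromosome 13, *Bhmt* lies 17758 bases from its paralog *Bhmt2*, which had a log2 fold change of −0.27, and 36471 bases from *Dmgdh*, which had −0.32, and neither neighbour was called. Reads that the paralogs could share cannot be told apart in these values. *Mat1a* was no longer called without control replicate 1 or *med23*Δli replicate 1 or 3, with an adjusted p of up to 0.0845 from limma.

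On the way from cysteine to taurine, *Cdo1*, cysteine dioxygenase, had 538, 526 and 667 FPKM in the controls and 326, 365 and 406 FPKM in the *med23*Δli-labelled livers, and fell by 0.66 on the log2 scale (adjusted p = 0.0245, limma). *Csad*, the decarboxylase that follows it, had 18.7, 35.1 and 28.2 FPKM and 61.7, 62.4 and 83.3 FPKM, and rose by 1.37 (standard error 0.24, adjusted p = 0.00970, limma). Neither gene overlapped between the groups. The call of *Cdo1* was lost without any 1 of the *med23*Δli-labelled livers (adjusted p up to 0.102) and with hepatocyte marker centring (0.131). *Csad* overlaps *Zfp740* on the opposite strand, which rose by 0.74 (adjusted p = 0.0197, limma) to between 10.6 and 12.8 FPKM, and reads of the shared bases cannot be assigned without strand. Of the other sulfur genes, *Cth*, which makes cysteine from cystathionine, rose from 47.8 ± 5.82 to 135 ± 24.0 FPKM (log2 fold change 1.48, adjusted p = 0.00276, limma) and kept its call in all 17 alternatives.

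**Figure D3:**
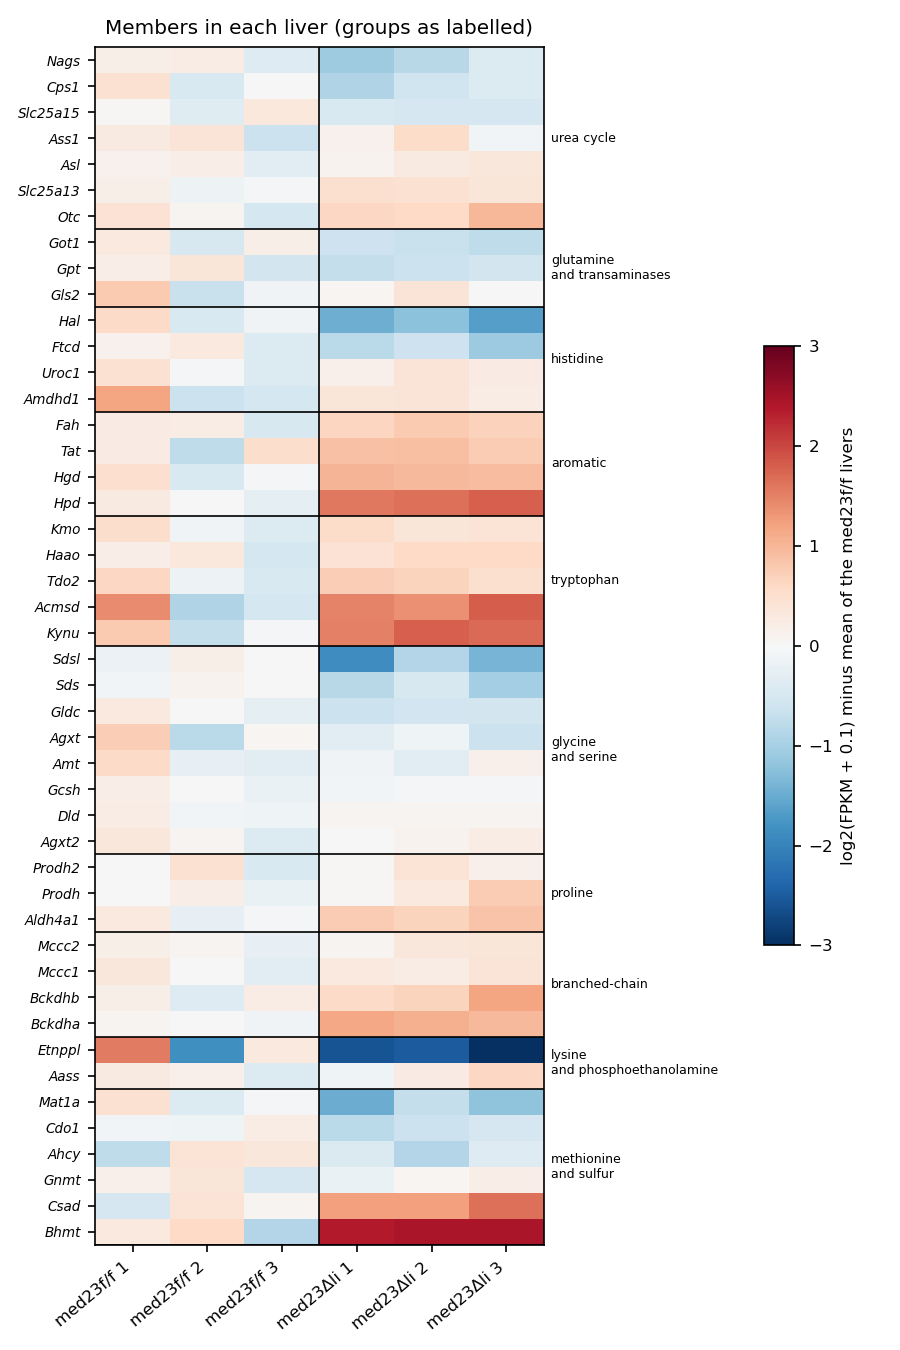
46 of the 47 genes (rows, by pathway) in each liver (columns, groups as labelled), coloured by log2(FPKM + 0.1) minus the mean of the med23f/f livers, red for higher and blue for lower. The controls differ visibly among themselves, above all for Etnppl, Acmsd and Amdhd1, and the livers labelled med23Δli resemble each other.

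Most of the 47 genes varied more among the controls than among the *med23*Δli-labelled livers. The coefficient of variation was larger in the controls for 39 of 47 genes and for 8667 of the 11956 genes tested. Its median was 28.2% in the controls and 10.8% in the other livers, beside 17.8% and 10.3% for all genes tested. Control replicate 1 was the highest control for 29 of the 47 genes and control replicate 3 the lowest for 26. *Med23*Δli replicate 1 was the lowest of its group for 25. Without control replicate 1, 14 of the 47 genes were higher and 6 lower, and over all genes tested 1125 were higher and 811 lower, instead of 1384 and 1133. The genes gained included *Otc*, *Tdo2*, *Acmsd* and *Amdhd1*, of which *Amdhd1* went from a log2 fold change of 0.32 to 0.91.

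Summed over all 47 genes, the levels overlapped between the groups. The sum was 8145, 6468 and 6250 FPKM in the controls and 5760, 6474 and 6305 FPKM in the *med23*Δli-labelled livers. The sums of the 9 pathway groups plotted did not overlap between the groups of livers, with 4 higher and 5 lower in every liver labelled *med23*Δli than in every control. The higher ones were the aromatic, tryptophan, proline and branched-chain sums, and the lower ones those of glutamine and transaminases, histidine, glycine and serine, lysine and phosphoethanolamine, and methionine and sulfur. A sum of FPKM weighs abundant genes most. The lysine and phosphoethanolamine sum was lower through *Etnppl* alone, while *Aass* had a mean of 34.9 FPKM in the controls and 41.6 FPKM in the others. The methionine and sulfur sum was lower although *Bhmt* and *Csad* rose, with *Mat1a*, *Cdo1* and *Ahcy* lower in mean. The branched-chain sum was 135, 115 and 122 FPKM in the controls and 224, 221 and 241 FPKM in the others. The tryptophan sum was 234 to 462 FPKM in the controls and 485 to 522 FPKM in the others, and the methionine and sulfur sum 1954 to 2109 and 1515 to 1820.2 FPKM.

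**Figure D4:**
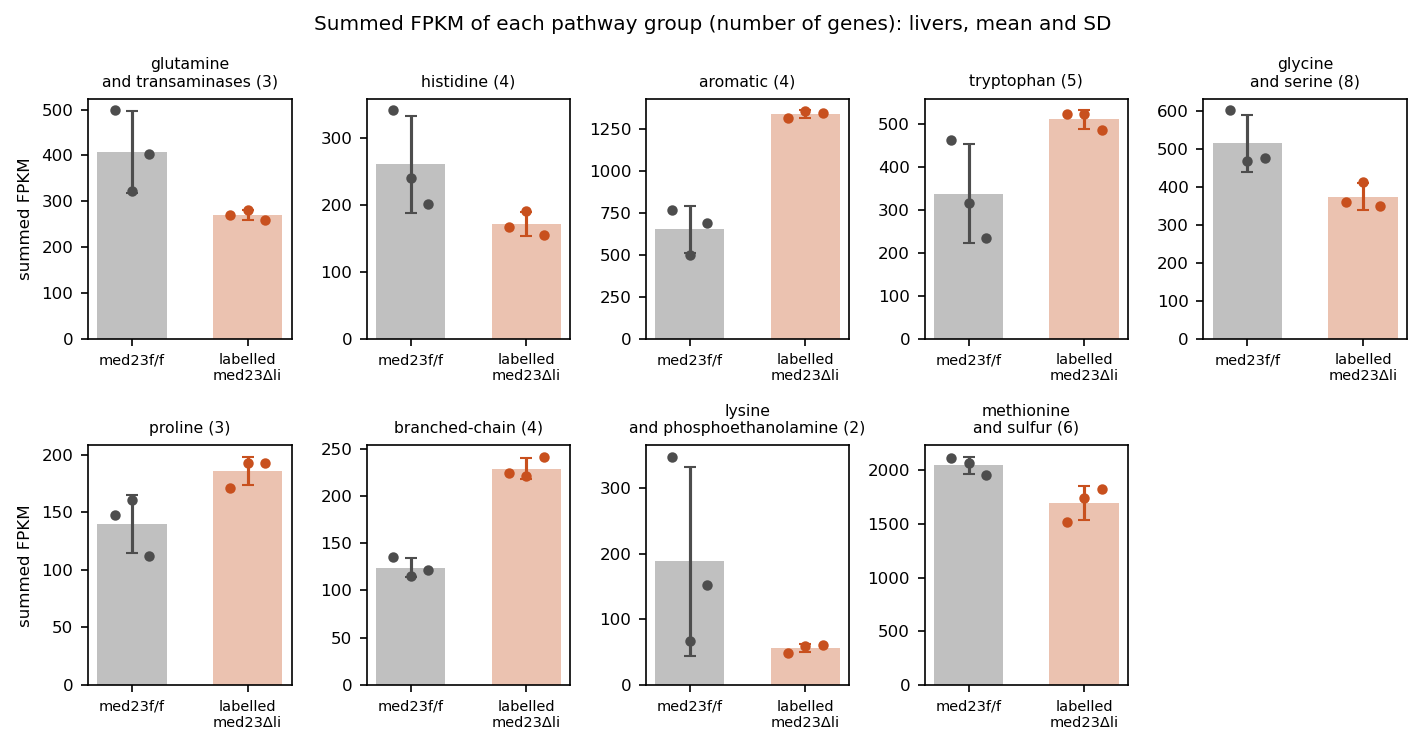
Summed FPKM of 9 pathway groups (y axis from 0, number of genes in the panel title), with 1 point per liver, bars for the mean and lines for the SD, grey for med23f/f and orange for the livers labelled med23Δli. The aromatic sum lies between 495 and 765 FPKM in the controls and between 1313 and 1355 FPKM in the livers labelled med23Δli.

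Of the 77 other genes of these pathways, 74 passed the filter, and 10 rose (13.5%) and 4 fell (5.41%), beside 11.6% and 9.48% of all genes tested. With quantile normalization it was 10 and 7, and with hepatocyte marker centring 14 and 2. Past 2-fold, *Ppm1k*, *Cth* and *Auh* rose and *Bcat2* and *Gpt2* fell. *Pycr1*, of proline synthesis, is counted among the 10 but passed the filter only through the group where it was high, so its call is not taken as support. It had at most 0.538 FPKM in the controls and 1.02 to 1.46 FPKM in the *med23*Δli-labelled livers, and was not tested with the filter at 1 FPKM. Of the 5 other urea cycle genes, 5 other aromatic genes and 6 other tryptophan genes tested, 0 were called by limma. At an unadjusted p under 0.05, 1 of the other urea cycle genes was higher and 2 lower, 1 of the aromatic genes was higher, and 2 of the tryptophan genes were lower.

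Among 15 regulators of these genes, 3 rose and 2 fell, beside 11.6% and 9.48% of all genes tested. *Klf15*, which is known to drive amino acid breakdown in fasting, had 19.8, 7.68 and 19.7 FPKM and 41.6, 39.6 and 45.1 FPKM, and rose by 1.54 (adjusted p = 0.0198, limma), a call lost without any 1 of the *med23*Δli-labelled livers (up to 0.0718). *Cebpb* (0.73) and *Insr* (0.62) also rose and *Creb3l3* (−0.71) fell, each at an adjusted p between 0.0402 and 0.0479 that 9 or 10 of the 17 alternatives ended, among them each omission of a liver labelled *med23*Δli. *Nr3c1*, the glucocorticoid receptor, *Ppargc1a*, *Hnf4a* and *Cebpa* had log2 fold changes of 0.46, 1.59, −0.55 and −0.16 and were not called, and neither was *Rora* (0.31).

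Markers of zones and of other cells were set beside these results. For comparison, 11.6% of all genes tested were called higher and 9.48% lower. Of 9 tested pericentral markers that are not among the 47 genes, 4 rose (*Cyp2e1*, *Cyp1a2*, *Rgn* and *Axin2*), and the summed level of the list of 10 was 374 to 554 FPKM in the controls and 1128 to 1140.1 FPKM in the *med23*Δli-labelled livers. Most of that sum in the labelled livers came from *Cyp2e1*, *Rgn*, *Lect2* and *Cyp1a2*, with means of 590.1, 327, 109 and 82.3 FPKM. *Glul*, *Rhbg* and *Slc1a2* had log2 fold changes of 0.18, −0.73 and −0.46 and were not called, and *Rhbg* was lower in every labelled liver than in every control. None of 5 periportal markers was called by limma (2 with an unadjusted p under 0.05), and their sums overlapped (2104 to 2934 and 1803 to 2648 FPKM). All 6 endothelial markers were lower, with sums of 81.4 to 119 and 43.7 to 46.9 FPKM. None of 9 macrophage, 5 neutrophil and 5 cholangiocyte markers was called by limma (2, 3 and 0 with an unadjusted p under 0.05), and 1 of 7 stellate cell markers, *Des*, was lower. Adipocyte markers summed to 13.1 FPKM in *med23*Δli replicate 2 and to at most 0.540 FPKM in every other liver, where *Plin1* and *Ucp1* were listed at 0. Without that liver 4 of the 47 genes were higher and 5 lower, and 487 and 442 of all genes tested. Without *med23*Δli replicate 1 it was 5 and 3 of the 47 and 401 and 349 of all, and without replicate 3 it was 4 and 3 of the 47 and 578 and 412 of all. The part of zonation and of these cells in the results was not tested.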

How the data were processed

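RNA-seq of 6 mouse livers was used, 3 labelled wt and 3 labelled med23 ko. The authors aligned reads to mm10 with TopHat and deposited FPKM values per library from Cuffdiff. FastQC is also named in the submitters' processing notes, and versions and annotation are not given in the sources used here. The deposited table also holds group FPKM, log2 fold changes, p-values and q-values from the authors' comparison, which were not used. No column of library values was left unmapped (0). Low FPKM values showed no shared step from which whole reads could be recovered.

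Values were compared as log2(FPKM + 0.1) for genes whose mean reached 0.5 FPKM, with limma 3.58.1 in R 4.3.3 (lmFit, eBayes with a trend, no block), adjusted by the Benjamini-Hochberg method over 11956 genes. The pseudocount understates changes of low genes. The script was tested on simulated data. The labels do not say that the libraries are separate animals, so p-values measure only the spread between these libraries. The members and all lists were chosen with earlier results of these data known, so that no count over them is independent support. Named with values per liver were enzymes of the urea cycle and, per pathway, up to 4 called members with the largest change (up to 2 where none was called), with further members added for context. Other pathway genes were named when called past 2-fold, and others for context. Some genes are not reported here by name or value, and counts include them unless a number of genes described or plotted is given. Same-numbered livers did not deviate together (r across genes −0.02, −0.05 and −0.12), so the numbers were not taken as pairs. Alternatives were 2 pseudocounts, 2 filters, 4 scalings, 2 variance models, the replicate block and each liver left out. Positions are from GENCODE M21 (GRCm38) and promoters from RefSeq (GRCm38.p6). Python 3.11.15, numpy 2.4.6 and pandas 2.3.3 were used for the rest.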

Additional observations from a re-analysis of the deposited data

How the results depend on the processing

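Of the 20 called genes, 7 kept their call in all 17 alternatives and in each omission of a liver, 14 kept it in every scaling and 15 with the replicate block, and 0 changed direction. The count of higher genes, 9, ranged from 4 (without *med23*Δli replicate 2 or 3) to 14 (without control replicate 1) with 1 liver left out, and was 5 without *med23*Δli replicate 1. The count of lower genes, 11, ranged from 3 (without *med23*Δli replicate 1 or 3) to 10, with 6 without control replicate 1 and 5 without *med23*Δli replicate 2. It was 6 with no filter, where more genes were tested, 7 with hepatocyte marker centring and 7 with the replicate block, which left 8 higher genes and 809 and 614 of all genes higher and lower. The same-numbered livers did not correlate best with each other, and the cause of the loss under the block was not tested. The calls lost under it were those of *Nags*, *Got1*, *Fah*, *Gldc* and *Mat1a* (adjusted p 0.0539 to 0.0913, limma), and, of the other genes named, those of *Aldh6a1* (0.0553), *Mat2b* (0.0598), *Creb3l3* (0.0632) and *Insr* (0.105). Past 2-fold, the higher count ranged from 4 to 7 and the lower count from 3 (without control replicate 1 or *med23*Δli replicate 1 or 3) to 5. The 10 other pathway genes that were higher ranged from 2 to 16, with 2 without *med23*Δli replicate 1, 4 without replicate 2 or 3 and 16 without control replicate 1. The 4 that were lower ranged from 2 (without *med23*Δli replicate 1 or 3) to 9 (without control replicate 3), and were 7 with quantile normalization and 2 with hepatocyte marker centring. Fits without 1 liver hold fewer samples by construction. The depth of each single library is unknown here, so no limit from counting could be given. With 3 livers a group, the spread between livers limits what can be called.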

Other observations

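By compartment, of the 21 genes whose products act in the mitochondrion, 3 rose and 3 fell (14.3% each), and of the 25 cytosolic ones, 6 rose (24%) and 8 fell (32%), beside 11.6% and 9.48% of all genes tested. Beyond the genes described above, *Glud1*, glutamate dehydrogenase, which sets ammonia free in the mitochondrion, fell from 515 ± 29.4 to 342 ± 44.0 FPKM (SD, n = 3 each), with log2 fold change −0.60 (adjusted p = 0.0257, limma). The call was lost in 4 of the 17 alternatives, with hepatocyte marker centring and without control replicate 2 or *med23*Δli replicate 1 or 3 (adjusted p up to 0.109). *Suox*, sulfite oxidase, rose by 0.85 on the log2 scale, and *Mat2b*, the regulatory subunit of the methionine adenosyltransferase of other tissues, rose by 0.57, whereas its catalytic partner *Mat2a* had a log2 fold change of 0.59 that was not called (adjusted p = 0.0658, limma). The calls of *Suox* and *Mat2b* were lost without any 1 of the livers labelled *med23*Δli, with adjusted p-values of up to 0.0616 and 0.0823.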
